A study of Mus musculus with 2 samples.

Results

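Id1, Id2, Id3 and Id4, the 4 genes of the inhibitor of DNA binding family, were taken by symbol from the 32285 genes listed in single-cell counts of E14 mouse embryonic stem cells, a line of 129/Ola background that can be grown without differentiating. They were followed over 4978 control cells and 2731 cells with a knockdown of Son (named sonKD), the barcodes with 2500 or more UMIs, 1000 or more genes and no more than 10% of UMIs from mitochondrial genes. A UMI (unique molecular identifier) is the tag by which reads of 1 captured RNA molecule are counted once. Son encodes a nuclear speckle protein that binds RNA and acts in splicing, and the series compares cells given siRNA against it with cells given a control siRNA. The labels name no genetic change in either group. Both grew in medium with 15% fetal bovine serum and LIF (leukaemia inhibitory factor), were transfected with siRNA by lipofection and were collected 24 hours later. They were frozen, thawed and sorted by 7-AAD staining before 10x Genomics Chromium 3' v3 barcoding. The labels name no added BMP and no BMP inhibitor, so the Id genes are described at their level in serum with LIF.

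Bone morphogenetic proteins (BMPs) bind paired serine/threonine kinase receptors, which phosphorylate SMAD1 and SMAD5, and these enter the nucleus with SMAD4 and bind near target genes, of which the Id genes are the classic example. ID proteins have a helix-loop-helix but no basic region that contacts DNA, so they pair with E proteins such as the products of Tcf3 and Tcf12 and keep these from binding DNA. In mouse embryonic stem cells, BMP from serum or added factor induces Id genes, which together with LIF and STAT3 hold the cells in self-renewal and restrain neural differentiation.

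The members share the helix-loop-helix in their coding sequence, and a part of it is shown to let the family likeness be seen base by base. The stretches below are 60 bases in frame, found by a search for the most similar window of the 4 coding sequences in GENCODE M21, with the bases that are the same in all 4 genes in capitals.
Id1: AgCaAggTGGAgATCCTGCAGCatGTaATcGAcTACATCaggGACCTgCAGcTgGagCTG
Id2: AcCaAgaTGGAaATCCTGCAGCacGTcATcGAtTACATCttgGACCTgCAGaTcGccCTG
Id3: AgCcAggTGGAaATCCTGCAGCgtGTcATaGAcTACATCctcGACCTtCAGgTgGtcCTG
Id4: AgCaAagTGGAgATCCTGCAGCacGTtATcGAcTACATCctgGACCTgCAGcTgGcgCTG
The stretches start at coding base 247 in Id1, 178 in Id2, 193 in Id3 and 265 in Id4. Of the 60 bases, 42 were the same in all 4 genes, a number that the search for likeness favours. Id1 and Id4 were the closest pair, with 54 bases in common (90.0%), and Id2 and Id3 the most distant, with 47 (78.3%). None of the 31-base words in the last 500 bases of any member's transcript occurs in a transcript of another gene, and the 3' chemistry counts reads near that end, so the likeness of the coding sequence leaves the counts of the members separable.

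All positions are on GRCm38, with gene models from GENCODE M21. Id1 (ENSMUSG00000042745) lies at chr2:152736251-152737410 on the plus strand, and its transcript of 934 bases in 2 exons encodes 148 residues. Id2 (ENSMUSG00000020644) lies at chr12:25093799-25097140 on the minus strand, with 1270 bases in 3 exons and 134 residues. Id3 (ENSMUSG00000007872) lies at chr4:136143497-136145755 on the plus strand, with 1278 bases in 3 exons and 119 residues. Id4 (ENSMUSG00000021379) lies at chr13:48261228-48266026 on the plus strand, with 3849 bases in 3 exons and 161 residues. On the opposite strand, 2 noncoding genes, A330033J07Rik and Gm49291, overlap Id4, and whether this overlap affects its counts was not tested.

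The RefSeq table of promoters (250 bases before to 50 after a start site, GRCm38.p6) held entries for 3 of the 4 members, Id2, Id3 and Id4, and none for Id1. Both strands were searched for letters that SMAD proteins bind, because the members are known as SMAD targets and were lower together in sonKD. GGCGCC, a GC-rich site of SMAD1 and SMAD5, was found once in Id2 and once in Id4, and in 11.9% of all 32851 promoters. The Id2 and Id4 promoters were 63.3% and 73.3% G or C, against a median of 52.7% over all promoters. The share over all promoters is thus not matched for base content. GTCTG, a short site bound by SMAD4, was found 2 times in Id3 and in 49.6% of all promoters. The palindrome GTCTAGAC was found in none of the 3 members and in 0.213% of promoters. Motifs of other proteins were searched as well. CCAAT was found 3 times in Id2 and 2 times in Id4, and in 37.4% of promoters. The GC box GGGCGG was found 1 time in Id2, 2 times in Id3 and 5 times in Id4, and in 35.7%. An E-box (CANNTG) was found 1 time in Id2 and in 72.3%. The SMAD-type matches are printed below within 30 bases of sequence, with the motif in capitals.
Id2, chr12:25096306-25096335, minus strand, 231 bases before the start site: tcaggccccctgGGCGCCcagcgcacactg
Id3, chr4:136143643-136143672, plus strand, 167 bases before the start site: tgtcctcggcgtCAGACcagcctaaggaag
Id3, chr4:136143742-136143771, plus strand, 68 bases before the start site: ggacccttggcgGTCTGttttgaataaggg
Id4, chr13:48260956-48260985, plus strand, 148 bases before the start site: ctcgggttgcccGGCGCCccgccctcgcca
In GENCODE M21 the Id2 match is in an intron of transcript Id2-202, both Id3 matches are inside exon 1 of Id3-201, whose start lies farther upstream than that of RefSeq, and the Id4 match lies upstream of the gene. A match of this kind describes letters only, and binding was not measured.

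Each group held 1 library, so no difference below has a replicate check, no test across samples could be made and no p-value is given. What the knockdown did and how the libraries differ otherwise cannot be told apart. Intervals are at 95% and cover counting error only. Cells had a median of 7737.5 UMIs and 2884 genes in control and 11612 UMIs and 3486 genes in sonKD. More barcodes exceeded the mitochondrial limit in sonKD (1056, 27.9%) than in control (625, 11.2%), and ribosomal protein genes took 24.1% against 20.8% of the UMIs. Son itself was at 169 CPM (counts per 1000000 UMIs of the library's cells) in control and 106 in sonKD, a log2 ratio of -0.67 (-0.73 to -0.61). The libraries shared 2 cell barcodes. All 10 embryonic stem cell markers exceeded 10 CPM in both libraries, with a summed level of 8640 CPM in control and 9391 in sonKD. The 12 primitive endoderm markers summed to 75.6 and 59.3 CPM, most of it from the basement membrane genes Lama1 (-0.33), Lamb1 (-0.30) and Col4a1 (-0.35), with Sox17 at 3 and 4 UMIs and Foxa2 at 3 and 2. The 9 trophectoderm markers summed to 11.0 and 13.4 CPM with Elf5 at 0. Those for mesoderm (10 genes) came to 6.01 and 5.96 CPM, with 4 UMIs of T in each library. Elf5 and T do not stand for these sums, nearly all of which came from other genes of the lists. The 8 neuroectoderm markers summed to 118 and 101 CPM, most of it from Ncam1 (-0.34) and Tubb3 (-0.05), with Dcx at 0, and the 10 fibroblast markers to 6.33 and 6.18 with Col3a1, Lum and Postn at 0. The part of these shifts in the Id values was not tested.

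All 4 Id genes had a lower relative level in sonKD. Levels between genes are compared in CPM of 3' UMIs, which count molecules and need no division by transcript length. Id1 was the most abundant, with 268 CPM (263 to 273, 10963 UMIs) in control and 177 CPM (172 to 181, 5661 UMIs) in sonKD. That is 65.9% of the control level (63.8 to 68.1), or a log2 ratio of -0.60 (-0.65 to -0.55). In order of UMIs Id1 was gene 547 of its library in control and gene 870 in sonKD.

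Id3 came next, at 31.7 CPM (30.0 to 33.5, 1297 UMIs) in control and 24.0 CPM (22.4 to 25.8, 770 UMIs) in sonKD, a log2 ratio of -0.40 (-0.53 to -0.27). Id2 was at 17.1 CPM (15.8 to 18.4, 699 UMIs) in control and 11.6 CPM (10.4 to 12.8, 370 UMIs) in sonKD, a log2 ratio of -0.57 (-0.75 to -0.38). Id4, which is best known in neural progenitors, was the scarcest, at 6.87 CPM (6.09 to 7.72, 281 UMIs) and 4.99 CPM (4.25 to 5.83, 160 UMIs), a log2 ratio of -0.46 (-0.75 to -0.17). The order Id1, Id3, Id2, Id4 was the same in both libraries, and no neighbours in it had intervals that met. The log2 ratios of Id2, Id3 and Id4 had overlapping intervals, so the members' ratios are not ordered beyond counting error, except that Id1 lay below Id3.

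The 4 genes together made up 324 CPM in control and 217 CPM in sonKD, of which Id1 was 82.8% and 81.3%. The makeup of the family was therefore near the same while its sum was lower. Counted as UMIs per cell without scaling, the libraries were close, with 2.20 and 2.07 for Id1, 0.261 and 0.282 for Id3, 0.140 and 0.135 for Id2, and 0.0564 and 0.0586 for Id4. The sonKD cells had more UMIs each, and whether they held more RNA or were sequenced with more capture per cell cannot be told apart. The lower level is thus a share of each cell's RNA, not a molecule count.

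**Figure D1:**
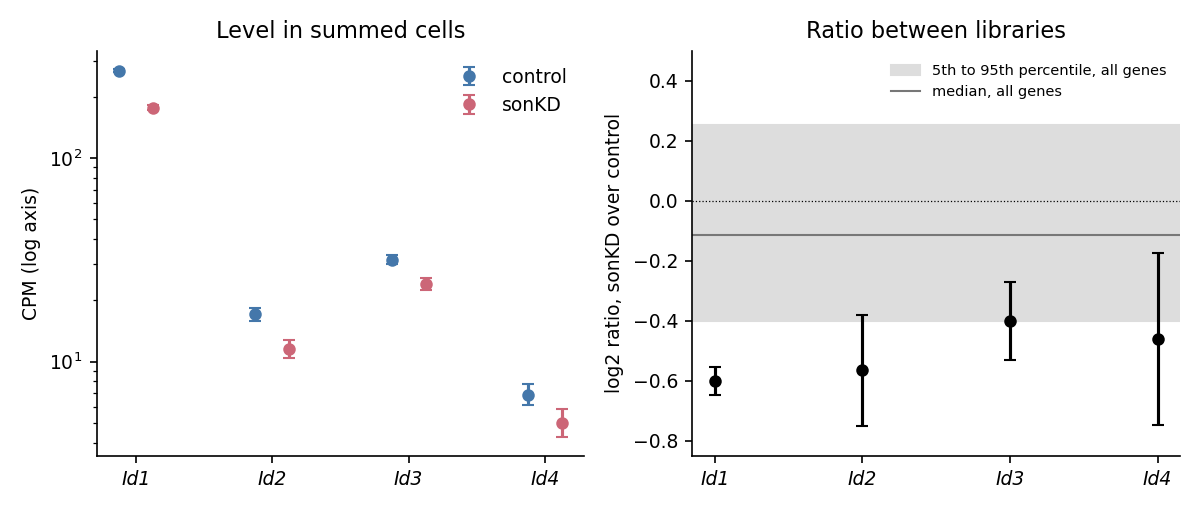
Left, the level of each Id gene in CPM on a log axis in control and sonKD, summed over cells, with exact Poisson 95% intervals. Right, the log2 ratio of sonKD over control with exact conditional binomial 95% intervals, beside the median (-0.12) and the 5th to 95th percentile range (-0.40 to 0.25) of 8063 genes; all 4 points lie below the median, Id1, Id2 and Id4 lie below the range, and Id3 is at its edge.

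Most genes had a slightly lower share in sonKD. Over the 8063 genes that averaged 10 CPM or more, the median log2 ratio was -0.12, and 74.9% of genes were below 0, against 56.6% with TMM factors, which moved the median to -0.03. A log2 ratio of -0.5 or lower was found in 2.39% of these genes and one of 0.5 or higher in 1.49%. Of the 3 members over 10 CPM, Id1 and Id2 were at or below -0.5, and none was at or above 0.5. With TMM factors the same 2 limits held 1.17% and 2.32% of genes, and Id1 alone was past the lower one, at -0.51, with Id2 at -0.48. At -0.3 or lower, which held 12.5% of genes, all 3 were included. Among the 8063 genes, 85 had a lower ratio than Id1, 113 a lower one than Id2 and 411 a lower one than Id3. Id4, with a mean of 5.93 CPM, was under the level filter, and 254 of these genes had a lower ratio than it.

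Depth and mitochondrial share differ between the libraries, so levels were also set side by side within bands of both. Id1 was lower in sonKD in every band of depth: the log2 ratio was -1.02 (-1.36 to -0.70) in cells of 2500 to 5000 UMIs, -0.67 (-0.87 to -0.47) from 5000 to 7500, -0.36 (-0.47 to -0.26) from 7500 to 10000, -0.57 (-0.65 to -0.50) from 10000 to 15000 and -0.34 (-0.47 to -0.22) from 15000 up. In control the Id1 level was lower in deeper cells, from 287 CPM in the shallowest band to 222 CPM in the deepest, while in sonKD it was 142, 180, 212, 170 and 175 CPM over the same bands. The ratio was farthest from 0 in the shallowest band, whose interval overlaps that of the next band and no other.

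Id3 showed less of a difference at middle depth, with a log2 ratio of -0.02 (-0.31 to 0.26) from 7500 to 10000 UMIs, -0.36 (-0.59 to -0.13) from 10000 to 15000 and -0.45 (-0.79 to -0.11) from 15000 up. Id2 was at -0.60 (-1.07 to -0.15), -0.55 (-0.87 to -0.24) and -0.63 (-1.11 to -0.15) in the same 3 bands. For both, the interval reached 0 in each of the bands under 7500 UMIs, where sonKD held 172 and 189 cells. By mitochondrial share the Id1 ratio was -0.74 (-1.26 to -0.25) below 2%, where sonKD held 22 cells and 39 Id1 UMIs. It was -0.60 (-0.67 to -0.54) from 2 to 4%, -0.54 (-0.62 to -0.46) from 4 to 6% and -0.60 (-0.77 to -0.44) from 6 to 10%. The other members varied more between the bands from 2 to 4% and from 4 to 6%, with wider intervals than Id1 there. In these bands Id3 was at -0.52 (-0.70 to -0.35) and -0.15 (-0.37 to 0.07). Id2 was at -0.70 (-0.96 to -0.45) and -0.38 (-0.70 to -0.06), and Id4 at -0.67 (-1.06 to -0.28) and -0.06 (-0.55 to 0.43).

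**Figure D2:**
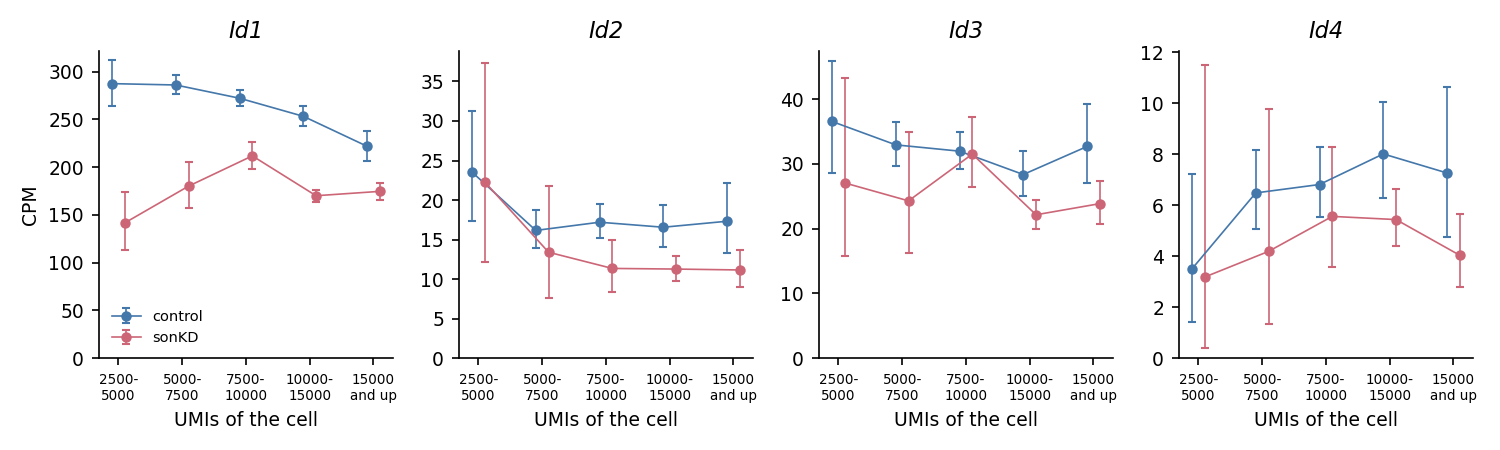
CPM of each Id gene (y axis, from 0) in cells grouped by their UMIs (x axis), in control and sonKD, with exact Poisson 95% intervals. The Id1 points of sonKD lie below those of control in all 5 bands, by least from 7500 to 10000 and from 15000 up, and the Id3 points meet from 7500 to 10000.

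Near-empty droplets of 100 to 500 UMIs show the RNA that was free in the suspension, and they held Id transcripts as well. Id1 made up 331 CPM of the control droplets and 170 CPM of the sonKD droplets, a log2 ratio of -0.96 (-1.02 to -0.90), with a UMI in 9.67% and 4.95% of droplets at a median of 305 and 296 UMIs. The mean was 0.101 and 0.0507 Id1 UMI per droplet, against 2.20 and 2.07 per cell. Id3 was at 37.4 and 21.7 CPM there, Id2 at 16.1 and 8.10 CPM and Id4 at 6.48 and 4.02 CPM. In control the Id1 level was higher in droplets than in cells (331 against 268 CPM), and in sonKD it was slightly lower (170 against 177 CPM). With a mean droplet taken off each cell, an alternative chosen after the data were seen, the log2 ratios were -0.59 for Id1, -0.56 for Id2, -0.39 for Id3 and -0.46 for Id4. In the barcodes over the mitochondrial limit, the Id1 level was 228 CPM in control and 151 in sonKD, a log2 ratio of -0.60 (-0.78 to -0.41).

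To compare single cells at 1 depth, UMIs were drawn at random until each cell held 4500, which left 4609 control and 2594 sonKD cells and left out 369 and 137 shallower ones. An Id1 UMI was then found in 57.2% (55.8 to 58.7) of control cells and 44.0% (42.1 to 46.0) of sonKD cells. Without thinning the shares were 70.6% and 67.7%, as sonKD cells were deeper. Id3 was found in 12.2% (11.3 to 13.2) and 9.14% (8.06 to 10.3) of thinned cells, Id2 in 6.81% (6.10 to 7.58) and 4.36% (3.60 to 5.21), and Id4 in 2.69% (2.24 to 3.20) and 2.08% (1.57 to 2.71). The intervals of the libraries did not meet for Id1, Id2 and Id3 and overlapped for Id4. Unthinned shares were 19.2% and 19.6% for Id3, 11.3% and 10.8% for Id2, and 5.20% and 5.46% for Id4. No cell type that lacks the Id genes was present to measure a background share within cells, and the droplet values above stand in its place.

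No Id gene was found in 36.6% of control and 49.5% of sonKD thinned cells, 1 in 49.6% and 42.3%, 2 in 12.2% and 7.36%, and 3 in 1.61% and 0.848%. All 4 were found in 1 control cell and in 0 of 2594 sonKD cells, which allows a share of up to 0.116% with a UMI of all 4 at this depth and sets no limit on cells that express them.

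Id1 varied between cells far more than genes of like abundance. Its mean was 1.23 UMIs per thinned control cell with a variance of 2.98, and 0.808 with a variance of 1.81 in sonKD, so the variance was 2.43 and 2.24 times the mean (the Fano factor, which is 1 for counting noise alone). Counting noise at the same means would have left an Id1 UMI in 70.8% and 55.4% of cells, above the 57.2% and 44.0% found. The squared coefficient of variation less its Poisson part, called excess here, was 1.16 in control and 1.53 in sonKD. The median excess of the 100 genes nearest to Id1 in mean was 0.0652 and 0.0713. Id1 exceeded all 100 of these in control and 98 of 100 in sonKD.

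A few cells carried part of this spread. The tenth of cells with the most Id1 held 40.8% of its UMIs in control and 47.0% in sonKD. The highest cell had 33 Id1 UMIs in control and 15 in sonKD. At least 8 UMIs were found in 45 control cells (0.976%) and 17 sonKD cells (0.655%), and without these, a choice made after seeing the data, the excess was 0.642 and 0.928.

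Id2 and Id3 also exceeded most genes of like mean, at lower counts. The excess of Id2 was 3.74 in control and 3.06 in sonKD, above all 100 and 98 of 100 genes of like mean. For Id3 it was 1.69 and 2.67, above 99 and 95 of 100. The size of these values shifts with the random draw: another thinning to the same depth gave 1.96 and 2.08 for Id2 and 1.65 and 6.02 for Id3. Id4 did not stand apart. Its excess was 1.26 and 0.734, above 72 and 45 of 100, and its Fano factor was 1.03 and 1.02. With 124 and 54 cells in which it was found, a spread of Id4 beyond that of its neighbours was not detectable at this depth.

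**Figure D3:**
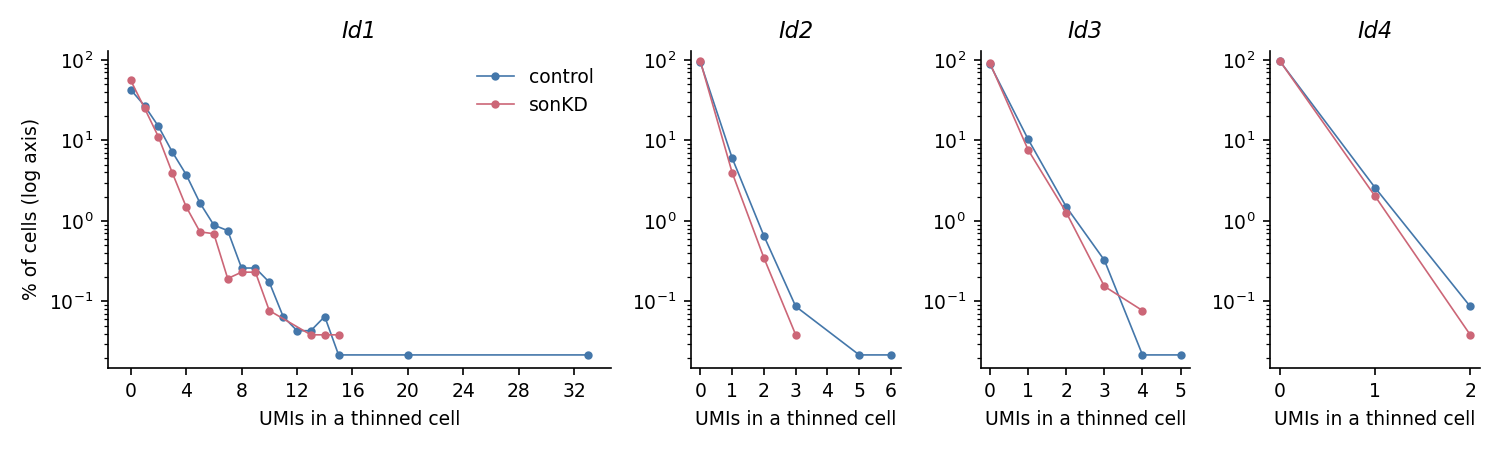
Share of thinned cells (y axis, percent, log scale) by the UMIs of each Id gene in the cell (x axis), for 4609 control and 2594 sonKD cells. The Id1 curve has a long tail, to 33 UMIs in control and 15 in sonKD, while Id2, Id3 and Id4 end at 6, 5 and 2 in control and at 3, 4 and 2 in sonKD.

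Id1, Id2 and Id3 tended to be found in the same cells, and Id4 was too scarce to place beside them. Over thinned cells, the Pearson r of log counts (ln of 1 plus the count) was 0.166 in control and 0.137 in sonKD for Id1 with Id3, 0.134 and 0.068 for Id1 with Id2, and 0.104 and 0.074 for Id2 with Id3. With Id4, r was between -0.006 and 0.033 for every member in both libraries. These values are small in sparse counts and describe 4609 and 2594 cells of 1 library each, not replicates. With the Poisson part taken out of the variances, the same pairs stood at 0.596 and 0.419 for Id1 with Id3, 0.504 and 0.322 for Id1 with Id2, and 0.538 and 0.501 for Id2 with Id3. On that scale Id4 stood at 0.034 and 0.076 with Id1, 0.045 and -0.160 with Id2, and 0.128 and 0.472 with Id3, the last resting on 9 sonKD cells with both genes, where the product of their shares gives 4.93. In another random thinning to the same depth, r was 0.146 and 0.097 for Id1 with Id3 and 0.086 and 0.024 for Id2 with Id3, so the sonKD values shift with the draw. The values less the Poisson part were not computed in that draw. They divide by excess variances that shift with the draw, so their size and their difference between libraries are not settled.

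The pairing is visible in plain shares of cells. Id3 was found in 14.9% (13.6 to 16.4) of control cells with an Id1 UMI and in 8.52% (7.33 to 9.84) of those without, and in sonKD in 12.3% (10.4 to 14.3) and 6.68% (5.45 to 8.09). Id2 was found in 8.34% (7.31 to 9.46) against 4.77% (3.87 to 5.80) of control cells and in 5.17% (3.96 to 6.61) against 3.72% (2.81 to 4.82) of sonKD cells, where the intervals overlap. Id2 and Id3 were found together in 73 control cells, where the product of their shares gives 38.3, and in 19 sonKD cells, where it gives 10.3.

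The share of cells with Id3 was higher at each step of the Id1 count. In control it was 8.52% at 0 Id1 UMIs, 11.2% at 1, 16.0% at 2 to 3, 20.8% at 4 to 7, and 51.1% (35.8 to 66.3) in the 45 cells with at least 8. In sonKD it was 6.68%, 9.19%, 14.6% and 22.2% over the first 4 steps, and 5 of 17 cells (29.4%, 10.3 to 56.0) at the last. Id2 in control went from 4.77% through 6.36%, 7.53% and 15.6% to 28.9% (16.4 to 44.3). Id4 in control was at 2.44%, 2.74%, 3.03%, 3.06% and 2.22%, the last from 1 of 45 cells, and the intervals of all 5 steps overlapped. At equal Id1 count the intervals of the Id3 share overlapped between the libraries at every step.

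Genes were also ranked by their likeness to the members. Among 5411 genes that averaged 0.1 UMI or more per thinned cell in both libraries, by r averaged over the libraries, the first for Id1 was Sfn (r of 0.114 in control and 0.198 in sonKD), which encodes the epithelial 14-3-3 sigma protein. Id3 was second, followed by S100a6 (0.078 and 0.169), Actb (0.090 and 0.103), which encodes cytoplasmic actin, and S100a10 (0.074 and 0.118), which like S100a6 encodes an S100 family protein. At the other end were Hist1h1b (-0.081 and -0.084), a linker histone gene of S phase, the mitochondrial gene mt-Co1 (-0.062 and -0.095) and Kat6b (-0.084 and -0.070), a histone acetyltransferase gene. Over all ranked genes, the 5th to 95th percentile range of r with Id1 was -0.032 to 0.034 in control and -0.037 to 0.043 in sonKD. Apart from Id3 (-0.40), levels of these 5 partners did not follow that of Id1 between the libraries. The log2 ratio was 0.28 for Sfn, 1.24 for S100a6, 0.14 for Actb and 0.27 for S100a10.

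For Id3 the first gene was Id1, followed by Sfn (0.065 and 0.053), Rps27l (0.037 and 0.074), S100a6 (0.053 and 0.055) and Bzw1 (0.061 and 0.046). At the low end were Hist1h1b (-0.040 and -0.059) and Eef1a1 (-0.033 and -0.063), which encodes a translation elongation factor. Id2 was too scarce for the ranking itself, but its own first gene was Id1 and its second Id3 among 5412. In the other thinning draw, at a depth of 6000 UMIs and without thinning, alternatives added after the data were seen, Id1 was again first for both Id2 and Id3, and Id3 took places 1 to 3 for Id1. For Id4 the first gene differed in each of the 4 versions (Ptbp3, Mmut, Fxr1 and Tpx2), and the place of Id1 ranged from 1056 to 4402.

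**Figure D4:**
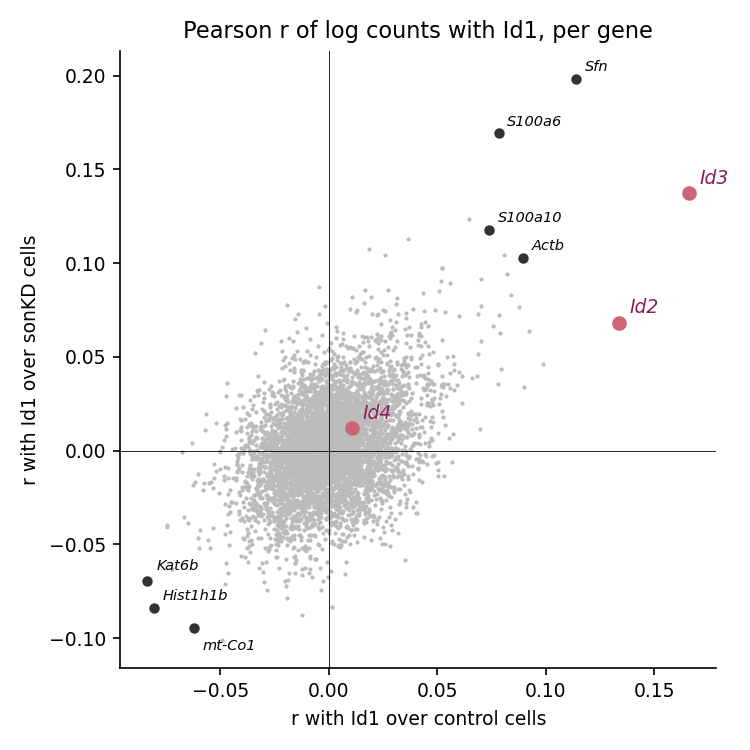
Pearson r of log counts with Id1 over control cells (x axis) and over sonKD cells (y axis) for 5411 genes (grey), with the other Id genes in red and the genes named by rank in black. Id3 and Id2 lie apart from the cloud at the right, Sfn and S100a6 at the top, and Id4 within the cloud.

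The genes upstream were counted in the same cells. Of 13 BMP ligand genes listed, 2 exceeded 10 CPM, and neither was past 0.5 in log2 ratio. Bmp4, the most abundant Bmp gene listed, was at 55.3 and 49.6 CPM (-0.16, -0.25 to -0.06), and Gdf3, a related ligand, at 87.2 and 85.9 CPM (-0.02). Bmp4 had an r of 0.043 and 0.046 with Id1, above the 95th percentile of all genes in both libraries, and took place 105 of 5411. For Id3 it took place 871, and for Id2 place 1924 of 5412.

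Of 12 receptors and co-receptors, 5 exceeded 10 CPM, all below 0, with a median log2 ratio of -0.26 and none past 0.5. Over all 8063 genes the median was -0.12, and 74.9% were below 0. For 2 of the 5 the interval included 0. Bmpr1a, a type I receptor, was at 67.4 and 56.3 CPM (-0.26, -0.35 to -0.17), Bmpr2, the type II receptor, at 35.5 and 28.4 CPM (-0.32, -0.44 to -0.20), and Eng, the co-receptor endoglin, at 14.4 and 10.3 CPM (-0.48, -0.68 to -0.28).

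The list of signal transducers holds 6 Smad genes and 5 genes of transcription factors that work with SMADs. Of these 11, 5 exceeded 10 CPM, the Smads 1 to 4 and Zfp423. All 5 were below 0, as were 74.9% of all 8063 genes, with a median of -0.19 and none past 0.5. Smad1 was at 19.7 and 18.7 CPM (-0.07, -0.23 to 0.08), Smad4, the shared partner, at 47.3 and 45.6 CPM (-0.05, -0.15 to 0.05), and Smad5, under the filter, at 8.39 and 7.55 CPM (-0.15, -0.39 to 0.09). The intervals of all 3 included 0. Smad2 and Smad3, which serve Nodal and activin, were at -0.22 and -0.26. Transcript counts do not measure SMAD phosphorylation.

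Inhibitors of the pathway, several of which are induced by it, were below 0 in 7 of the 7 that exceeded 10 CPM out of 21. Their median was -0.29 and none was past 0.5. Of all 8063 genes, 74.9% were below 0, or 56.6% with TMM factors. Smad7, an inhibitory SMAD, was at 173 and 159 CPM (-0.12, -0.17 to -0.07). Smad6, the inhibitory SMAD of the BMP branch, was under the filter at 5.45 and 4.50 CPM (-0.28, -0.59 to 0.03). Not all genes under the filter were lower: Bambi was at 5.04 and 5.99 CPM (0.25, -0.04 to 0.54). Tob2 was at 6.04 and 6.71 CPM (0.15, -0.12 to 0.42). Tob1, an antiproliferative protein that binds SMADs, was at -0.36 and Smurf2, a ubiquitin ligase, at -0.34. With TMM factors the 7 inhibitor genes were again below 0, while 1 of 5 receptors, 2 of 5 signal transducers and 1 of 2 ligands went above it.

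Other genes listed as BMP-SMAD targets gave 5 lower and 1 higher among 6 over 10 CPM, out of 17, with a median of -0.20 and none past 0.5. The share lower was 83.3%, beside 74.9% of all 8063 genes. With TMM factors it was again 83.3%, beside 56.6%. Hes1, a transcriptional repressor that also answers to Notch, was at 28.6 and 21.6 CPM (-0.40, -0.54 to -0.27), and Dusp9, a phosphatase that restrains ERK downstream of BMP, at 45.8 and 34.7 CPM (-0.40, -0.51 to -0.29). Msx2, Dlx5, Gata3 and Hey1, targets in differentiating tissues, had 21 UMIs or fewer in each library; they are named after their values were seen.

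Of the 21 basic helix-loop-helix genes whose products pair with ID proteins or answer to them, 6 exceeded 10 CPM. Of these, 5 were lower and 1 higher, with a median of -0.25. The share lower was 83.3%, beside 74.9% of all 8063 genes. With TMM factors it was again 83.3%, beside 56.6%. Tcf3, which encodes the E proteins E12 and E47, was at 35.7 and 29.8 CPM (-0.26, -0.38 to -0.14), and Tcf12 at 46.9 and 42.1 CPM (-0.16, -0.26 to -0.06). Hes6, which encodes a HES family member that counters HES1, was at 15.9 and 9.93 CPM and was the only one past 0.5 (-0.68, -0.88 to -0.48). The interval of Tcf3 overlapped those of Id3 and Id4, and a difference between Id and E protein genes was not tested.

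**Figure D5:**
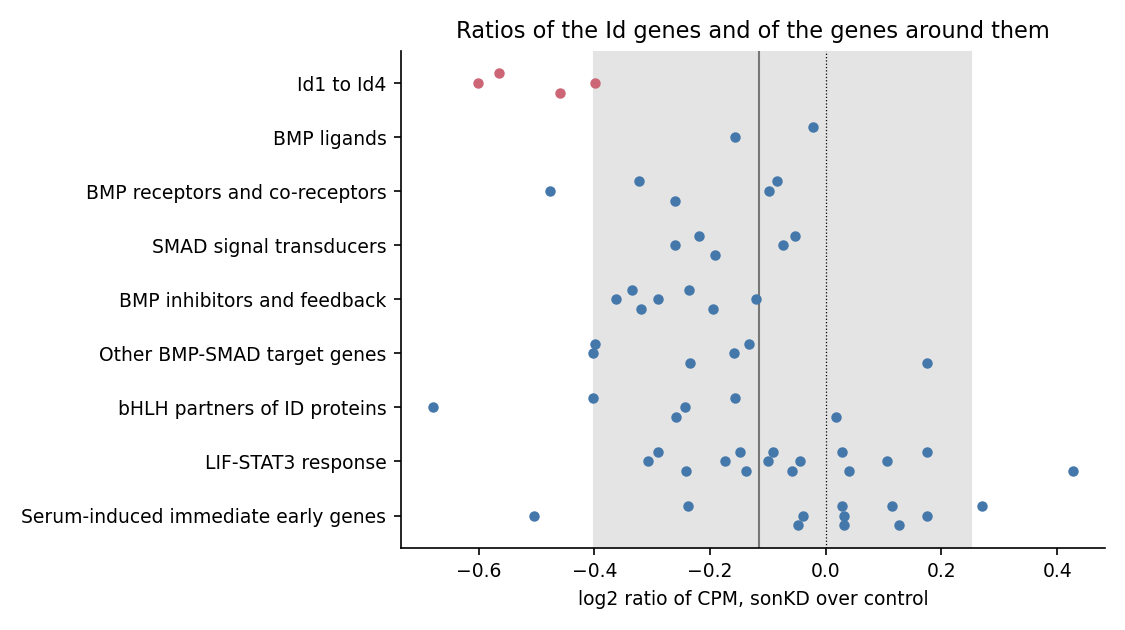
Log2 ratio of CPM, sonKD over control (x axis), for the Id genes (red) and for the genes over 10 CPM of 8 lists (blue, 1 point a gene); grey marks the 5th to 95th percentile range of 8063 genes and the line their median (-0.12). The 4 Id genes lie at -0.40 or lower, where the other points are Eng, Hes1, Dusp9, Hes6 and Egr1.

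The 2 cues of the medium were set beside the members, where 74.9% of all 8063 genes were below 0, or 56.6% with TMM factors. Of 15 LIF-STAT3 response genes over 10 CPM, 10 were lower and 5 higher (8 and 7 with TMM factors), with a median of -0.09. None was past 0.5 in CPM, and with TMM factors 1 was, Socs3, on the higher side. Socs3, the feedback inhibitor of LIF signalling, was at 25.4 and 34.2 CPM (0.43, 0.30 to 0.55), and Gbx2 at 21.2 and 17.1 CPM (-0.31, -0.46 to -0.15). Among 11 serum-induced immediate early genes over 10 CPM, 4 were lower and 7 higher (2 and 9 with TMM factors), with a median of 0.03. Egr1 was the only one past 0.5, at 19.8 and 14.0 CPM (-0.50, -0.67 to -0.34), and with TMM factors none of the 11 was. Btg2 was at 27.4 and 33.0 CPM (0.27, 0.15 to 0.39). The summed immediate early genes had an r of 0.091 and 0.113 with Id1, and the sums of the 6 BMP and helix-loop-helix lists between -0.020 and 0.028.

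State and cycle genes gave the following counts, beside 74.9% of all 8063 genes below 0, or 56.6% with TMM factors. Naive pluripotency genes were lower in 15 and higher in 2 of 17 (10 and 7 with TMM factors), with a median of -0.11. Prdm14 (13.1 and 10.3 CPM, -0.35) and Nr5a2 (80.3 and 63.9 CPM, -0.33) were farthest from 0. Formative and primed genes were lower in 8 and higher in 2 of 10 (7 and 3 with TMM factors), with a median of -0.15. Krt18, a keratin of epithelia, was the only one past 0.5, at 20.3 and 33.9 CPM (0.74), and Pou3f1 was at -0.31. S phase genes had a median of -0.13 over 25, with 21 lower and 4 higher (16 and 9 with TMM factors). Uhrf1, which recruits maintenance DNA methylation, was past 0.5 at 159 and 105 CPM (-0.59), and Mcm2 was at -0.35. G2/M genes had a median of -0.17 over 29, with 25 lower and 4 higher (23 and 6 with TMM factors). Plk1 (-0.42) and Birc5 (-0.38) were farthest from 0. In single cells the summed levels of these 4 lists had an r with each Id gene between -0.067 and 0.069. Their part in the Id values was not tested.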

How the data were processed

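The authors deposited raw UMI counts per gene and barcode, made with Cell Ranger 7.1.0 per the file headers and on mm10 per the submitters' processing notes. The annotation release, and whether reads in introns were counted, are not given in the sources used here. The members, gene lists and tests were chosen with earlier results of these data known. Groups came from the sample titles, 1 library each (71046373 and 60352438 UMIs over all barcodes, 40902904 and 32032551 in cells). Whether both were prepared in 1 run is not given, and the labels name 2 NextSeq models.

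Counts were summed over cells and scaled to CPM. Log2 ratios used no pseudocount, and counts under 3 were set to 3. Counts of genes cover those that averaged 10 CPM or more. Intervals at 95% were exact Poisson, exact binomial (Clopper-Pearson) and exact conditional binomial. Doublets were kept: Scrublet (scanpy 1.11.5) called 0.0603% and 0.0366% of barcodes, too few to be a working call, and an alternative removed the 198 and 60 barcodes with the highest scores. Thinning drew 4500 UMIs a cell without replacement, which is the 10th percentile in control, taken down to the next multiple of 500. TMM factors came from edgeR 4.0.16. Ratios, intervals, thinning and correlations were tested on simulated data.

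Named genes were the members and Son, the 2 genes of each list farthest from 0 among those over 10 CPM, 10 pathway genes whatever their level (Bmp4, Bmpr1a, Bmpr2, Smad1, Smad5, Smad4, Smad6, Smad7, Tcf3, Tcf12), and for Id1 and Id3 the 5 genes highest and the 3 lowest in r. Of these genes, 1 is not reported here. Lamb1, Bambi, Tob2 and markers at 0 or near it are named besides, after their values were seen. Of 32285 listed genes, 21914 in control and 21579 in sonKD had a UMI in cells.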

Additional observations from a re-analysis of the deposited data

How the results depend on the processing

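No paired analysis was possible because each group held 1 sample. All 4 log2 ratios were below 0 in each of 9 alternatives, which gave -0.63 to -0.51 for Id1, -0.71 to -0.48 for Id2, -0.50 to -0.31 for Id3 and -0.49 to -0.37 for Id4. Of 36 such values 34 lay within counting error of those reported. The other 2 were Id1 at -0.51 with TMM factors and at -0.53 without mitochondrial and ribosomal protein genes. Where the level filter was 50 CPM, 1 member remained over it, Id1, and it was past 0.5. The share of cells with an Id1 UMI follows depth, at 40.3% in control and 28.9% in sonKD when thinned to 2500 UMIs, 65.3% and 52.2% at 6000, and 70.6% and 67.7% without thinning. Without the cells with at least 8 Id1 UMIs, the excess of Id1 was 0.642 and 0.928. At 2500 UMIs, r of Id1 with Id3 was 0.070 in sonKD and the excess of Id4 in control was -0.988, so Id4 spread is not resolved. Of 96 values of r, 92 moved by less than 0.05, and the other 4 were of pairs without Id4. Pairs with Id4 had r near 0 and little room to move. Of 48 values of excess, 18 moved by more than 20% and 1 changed sign. The limit for r was absolute and that for excess relative, so these counts do not compare the steadiness of r and excess. Another thinning draw alone took the excess of Id2 in control from 3.74 to 1.96 and that of Id3 in sonKD from 2.67 to 6.02. With 1 library a group, counting error is the only error measured.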
